A study of Caenorhabditis elegans with 2 samples.

Results

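The genes that encode the proteins of the cytosolic ribosome were examined in ChIP-seq of eGFP-tagged SPTF-1, an Sp-type zinc finger protein, in first-stage larvae of the nematode Caenorhabditis elegans. They were taken as all protein-coding genes of the WBcel235 (ce11) annotation whose symbol is rpl- or rps- followed by a number. This gave 78 genes, 47 for the large subunit (rpl-) and 31 for the small subunit (rps-), of 19973 protein-coding genes on the nuclear chromosomes. The larvae were whole animals of mixed sex of strain OP196, which is unc-119(ed3) III and carries the inserted transgene array wgIs196 that supplies the tagged protein. Both samples, replicates 1 and 2, were of this one group, and no untagged strain, wild type or control library was analysed here. The antibody is named in the labels only by its target, and the promoter, copy number and cell types of the tagged protein are not given in the sources used here. Each cell type of the larva contributes to a whole-animal library, so fewer cells with a bound site and weaker binding per cell cannot be told apart.

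Ribosomal proteins coat the ribosomal RNA of the small subunit, which decodes the messenger RNA, and of the large subunit, which joins amino acids into a chain. Their genes are among the most highly transcribed in growing cells, are compact, and have to be expressed in matched amounts, and several carry small nucleolar RNA (snoRNA) genes in their introns. Sp proteins bind GC-rich elements such as the GC box, and in mammals Sp1 sites occur in promoters of several ribosomal protein genes.

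Each replicate has a deposited list of 30000 regions described as peaks and background, 336 bp wide in replicate 1 and 350 bp wide in replicate 2, so a listed region need not be a peak. A further list of 193 regions, also described as peaks and background, was made from both replicates pooled. A list of 18 optimal IDR peaks was thresholded by the irreproducible discovery rate, which compares ranks between replicates. The deposited signal value of a region is the authors' own, its scale is not stated, and it is used here only to rank regions within a list, with rank 1 the highest. It ran between 7.51 and 37.1 in replicate 1 (median 9.78) and between 6.09 and 26.5 in replicate 2 (median 8.13). A gene was counted when a region overlapped its body or the 500 bp upstream of its start by at least 1 bp. These windows are short at ribosomal protein genes, with a median of 1253 bp (776 to 2234 bp), against 2533 bp at the other protein-coding genes. Longer windows meet a region more often, so the share of other genes was also standardised to the ribosomal protein genes' window lengths in 10 bins.

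In replicate 1, 36 of the 78 ribosomal protein genes held a listed region, which is 46.2% (95% exact interval 34.8 to 57.8%). The share was 62.4% of all protein-coding genes and 37.7% of the other genes after length standardisation, so the ribosomal protein genes lay 8.46 percentage points above genes of their own length. That standardised share lay inside their counting interval. In replicate 2, 53 of the 78 held one, or 67.9% (56.4 to 78.1%), against 63.4% of all protein-coding genes and 39.3% of the length-standardised others. The difference was 28.6 points, and the standardised share lay outside the interval. The direction was therefore the same in both replicates and its size was over 3 times as large in replicate 2. Intervals cover counting error only, and genes are not replicates of a culture.

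A region of either replicate was present at 63 ribosomal protein genes, or 80.8%, against 80.5% of all protein-coding genes and 59.2% of the length-standardised others. Both replicates had one at 26 genes, or 33.3%, against 45.2% of all genes and 17.8% of the standardised others. At 16 genes, or 20.5%, a region of replicate 1 overlapped a region of replicate 2, against 25.7% of all genes and 10.5% of the standardised others. Of the remaining genes, 10 had a region in replicate 1 alone, 27 in replicate 2 alone and 15 in neither. Against all protein-coding genes the shares were close or lower, and against genes of the same length they were higher.

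**Figure D1:**
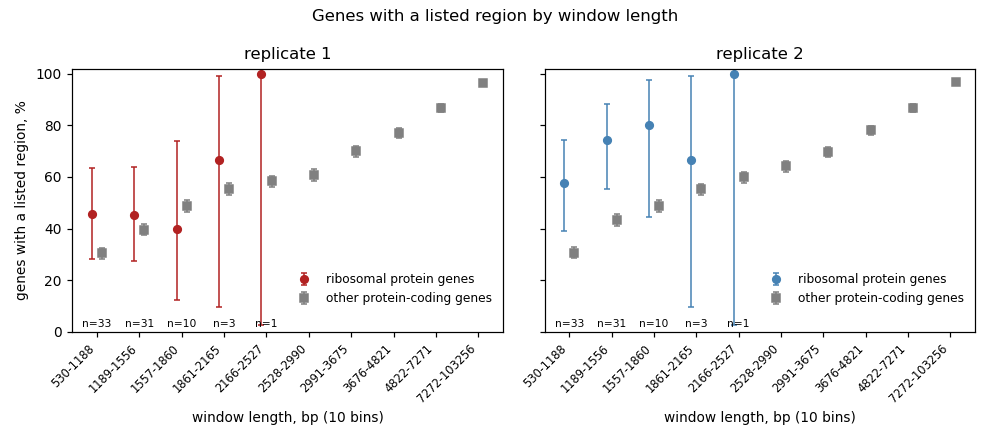
Percent of genes with a listed region (y axis) by window length in bp, in 10 bins of all protein-coding genes (x axis), with ribosomal protein genes in colour to the left of the other protein-coding genes in grey and 95% exact intervals as bars. Ribosomal protein genes occupy the 5 shortest bins, and in replicate 2 they lie above the others in each of these, at 57.6% against 30.7% in the shortest bin. The bins of 1861 to 2165 bp and 2166 to 2527 bp hold only 3 genes and 1 gene, with intervals of 9.43 to 99.2% and 2.5 to 100% in replicate 2.

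Within the shortest bin of windows, up to 1188 bp, 15 of 33 ribosomal protein genes had a region in replicate 1 (45.5%, against 30.4% of other genes) and 19 in replicate 2 (57.6%, against 30.7%). In the next bin, up to 1556 bp, 14 of 31 had one in replicate 1 (45.2%, against 39.5%) and 23 in replicate 2 (74.2%, against 43.2%). In the bin up to 1860 bp, 4 of 10 had one in replicate 1 (40%, against 48.8%) and 8 in replicate 2 (80%, against 48.8%). The remaining 4 genes fell in longer bins, of 3 genes and 1 gene, too few to compare. The difference thus ran one way in each bin up to 1860 bp in replicate 2 and was not uniform in replicate 1.

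Few regions passed the strictest cuts, here and at other genes of this length. No ribosomal protein gene held one of the 18 optimal IDR peaks, where 0.0701% of all protein-coding genes and 0.0247% of the length-standardised others did. A count of 0 among 78 allows a share of up to 3.85%. None held a region with a q under 0.05. That share was 0.16% of all genes and 0.0292% of the standardised others in replicate 1, and 0.0901% and 0.0266% in replicate 2. At such shares a count of 0 does not set these genes apart. The lowest q at a ribosomal protein gene was 0.187 in replicate 1, at rpl-3, and 0.26 in replicate 2, at rps-5. The pooled list is also described as peaks and background, so a region in it need not be a peak. It held a region at 1 of the 78, rpl-3, which is 1.28%, against 0.721% of all genes and 0.178% of the standardised others. Counts of 1 or 2 genes give wide intervals, 0.0325 to 6.94% for 1 of 78. Among the 500 highest regions of a list, ribosomal protein genes met 2 in replicate 1 (rpl-3 and rpl-15), or 2.56%, against 1.96% of all genes and 0.582% of the length-standardised others. In replicate 2 they met 1 (rps-5), or 1.28%, against 2.13% of all genes and 0.801% of the standardised others. Among the 5000 highest, 5 genes met one in replicate 1, or 6.41%, against 17.4% of all genes and 6.9% of the length-standardised others. In replicate 2, 15 genes did, or 19.2%, against 18.1% of all genes and 8.26% of the standardised others.

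The gene with the highest region was rpl-3 (WBGene00004414, chrIII:3867854-3869587, plus strand), whose product is a large-subunit protein near the peptidyl transferase centre. Its regions had a signal of 20.6 in replicate 1, rank 142, and 14.3 in replicate 2, rank 816, and the pooled region had 31.3, rank 86 of 193. The deposited q of the pooled region, read only as a score in that list, was 0.953. The summit was 778 bp into the gene in replicate 1, 914 bp in replicate 2 and 776 bp for the pooled region, each time in coding sequence. For rps-5 (WBGene00004474, chrIV:11110157-11111045, minus strand), a small-subunit protein near the exit of the messenger RNA channel, the order of the replicates was opposite. It had the highest signal of all ribosomal protein genes in replicate 2, 15.3 at rank 475, with a summit in coding sequence 410 bp from the start, and 7.77 at rank 27908 in replicate 1. The second highest region of replicate 1 was that of rpl-15 (chrIV:653480-654576, minus strand), a large-subunit protein, with 20.2 at rank 171. Its summit lay 603 bp upstream of the start, so the region only reached into the window, and the 2 regions of replicate 2 at the gene lay elsewhere in it, the higher with 7.02 at rank 22286. The third was that of rps-1 (chrIII:4475918-4476876, plus strand), a small-subunit protein, with 16.1 at rank 1247 and a summit 472 bp upstream. Replicate 1 listed 3 regions at rps-1 and replicate 2 none. The sequences at these 4 summits are shown because they come from the 3 highest regions of replicate 1 and the highest of replicate 2, and they differ in kind: those of rpl-3 and rps-5 run across an intron-exon junction, and those of rpl-15 and rps-1 are upstream sequence. Each is 101 bases centred on the summit, on the strand of the gene, from the RefSeq WBcel235 genome, with coding sequence of the gene in capitals. They span chrIII:3868582-3868682 for rpl-3, chrIV:11110585-11110685 for rps-5, chrIV:655129-655229 for rpl-15 and chrIII:4475396-4475496 for rps-1.
rpl-3, replicate 1: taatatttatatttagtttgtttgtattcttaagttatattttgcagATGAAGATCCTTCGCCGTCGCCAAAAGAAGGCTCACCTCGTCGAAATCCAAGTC
rps-5, replicate 2: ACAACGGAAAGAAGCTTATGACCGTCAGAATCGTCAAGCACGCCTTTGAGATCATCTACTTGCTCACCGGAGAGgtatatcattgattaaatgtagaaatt
rpl-15, replicate 1: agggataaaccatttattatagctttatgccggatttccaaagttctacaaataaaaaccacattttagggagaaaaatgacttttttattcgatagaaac
rps-1, replicate 1: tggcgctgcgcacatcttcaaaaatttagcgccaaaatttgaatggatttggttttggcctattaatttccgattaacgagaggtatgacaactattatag
The GC content of these stretches was 35.6% at rpl-3, 40.6% at rps-5, 29.7% at rpl-15 and 37.6% at rps-1. None of the 107 listed regions at ribosomal protein genes had a copy elsewhere in the genome of at least 100 bp at 95% identity, so none is a repeat by this measure.

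Beyond rpl-3, rpl-19, for a large-subunit protein, was the only ribosomal protein gene with a region among the 5000 highest of both replicates. Its signal was 15.8 in replicate 1, rank 1443, from a region with its summit in the 3′ UTR, and 12.5 in replicate 2, rank 2182, from a region in an intron about 1 kb away, so the regions did not overlap. The mean of its percentiles, the percent of regions of the list with a lower signal, was 94, against 98.4 for rpl-3. The next was rps-20, for a small-subunit protein, at a mean percentile of 81.5 with a signal of 11.8 in replicate 1 and 11.5 in replicate 2, again from regions apart, and the region of replicate 2 had its summit in the neighbouring gene ekl-4. The others among the 10 best by this mean were rpl-14 (74.6), rpl-11.2 (74), rpl-21 (73.9), rpl-20 (72.6), rps-23 (71.6), rpl-7 (64.5) and rpl-30 (64.1). Of these, rps-23 encodes a protein of the decoding centre.

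Several high regions were seen in 1 replicate only, or lay in a neighbour. The gene rpl-24.2 had a signal of 15.7 in replicate 1, rank 1474, and no region in replicate 2. Its summit lay 37 bp into the gene, where the gene C03D6.1 also lies. In replicate 2, the large-subunit gene rpl-7 had 3 regions, the highest with 14.2 at rank 866 in coding sequence, against a single region in replicate 1 with 8.82 at rank 20424. The small-subunit genes rps-13 and rps-11 had 12.9 at rank 1805 and 12.8 at rank 1919 in replicate 2, and neither had a region in replicate 1. The summit at rps-13 lay 496 bp upstream in the body of nfx-1, and that at rps-11 lay 84 bp into its own coding sequence. With its 4 regions over both replicates, rpl-7 had the most of any ribosomal protein gene.

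**Figure D2:**
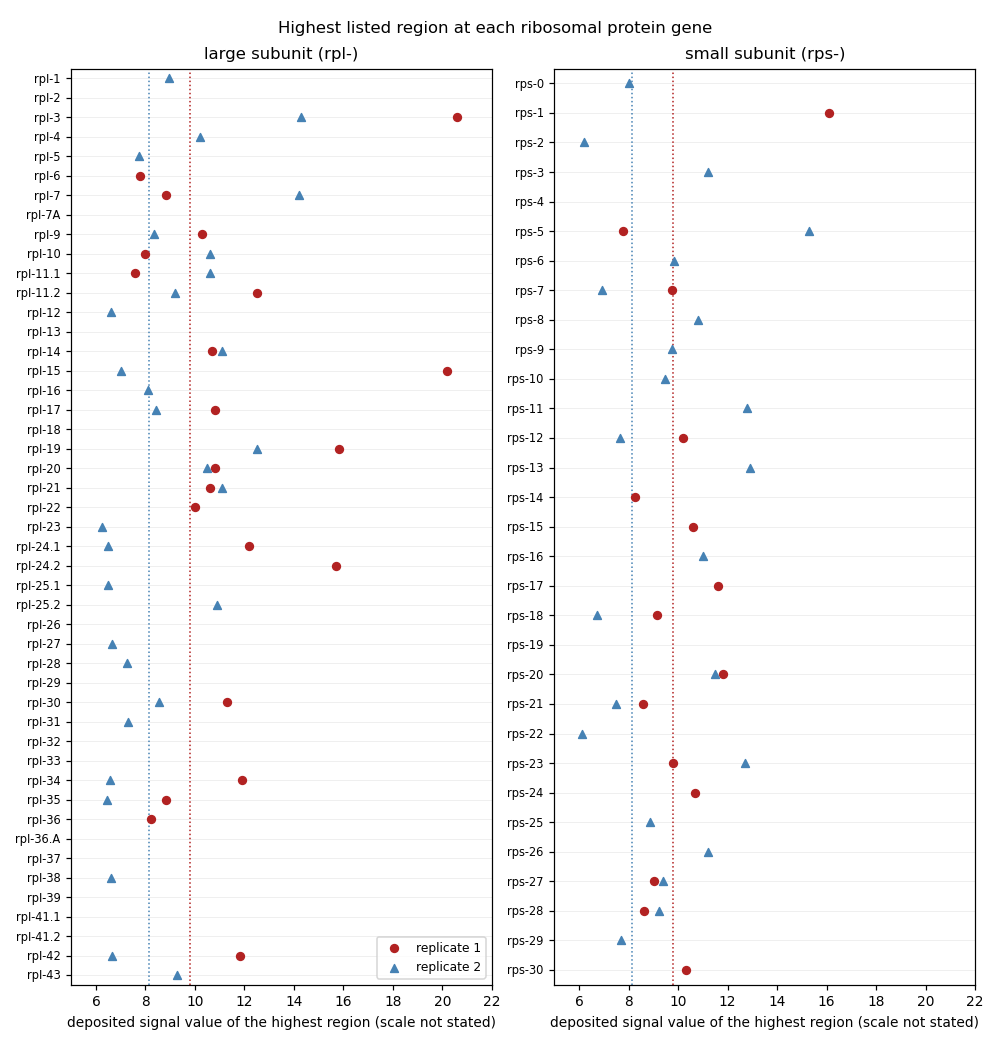
Deposited signal value (x axis, scale not stated) of the highest listed region at each of the 47 large-subunit and 31 small-subunit genes (y axis), with circles for replicate 1, triangles for replicate 2 and dotted lines at each list's median. Rows with no symbol are the 15 genes with no region. The circles of rpl-3 (20.6) and rpl-15 (20.2) and the triangles of rps-5 (15.3) and rpl-3 (14.3) lie farthest right for their replicates.

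In replicate 1, 42 genes had no region, 33 had 1, 2 had 2 and 1 had 3. In replicate 2, 25 genes had no region, 40 had 1, 11 had 2 and 2 had 3. The 39 distinct regions of replicate 1 had signals between 7.58 and 20.6 and a median percentile of 58.3, against 49.4 for regions at the 7946 other genes within the same range of window lengths. The 68 regions of replicate 2 had signals between 6.1 and 15.3 and a median percentile of 58.4, against 49.9. The share of these regions among the 5000 highest was 12.8% in replicate 1, against 15.9% at the other genes, and 25% in replicate 2, against 17.6%. Among the 500 highest it was 5.13% in replicate 1, from 2 regions, against 1.37%, and 1.47% in replicate 2, from 1 region, against 1.63%. The medians thus lay above those of other genes in both replicates, but they are given without an interval and the difference was not tested. The share of strong regions changed direction with the number of regions kept and between replicates.

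By subunit, 21 of 47 large-subunit genes (44.7%) and 15 of 31 small-subunit genes (48.4%) had a region in replicate 1. In replicate 2 these were 30 of 47 (63.8%) and 23 of 31 (74.2%). Either replicate had one at 34 large-subunit genes (72.3%) and 29 small-subunit genes (93.5%), while both had one at 17 (36.2%) and 9 (29%). Median windows were 1253 bp and 1256 bp, so length hardly differed between the subunits. No test was made between them.

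The 15 genes without a region in either replicate were rpl-2, rpl-7A, rpl-13, rpl-18, rpl-26, rpl-29, rpl-32, rpl-33, rpl-36.A, rpl-37, rpl-39, rpl-41.1 and rpl-41.2 of the large subunit, and rps-4 and rps-19 of the small subunit. Some are among the shortest, such as rpl-37 with a window of 776 bp and rpl-39 with 838 bp, and others are longer than the median, such as rpl-7A with 1948 bp and rpl-2 with 1646 bp. The divergent neighbours rps-14 and rpl-36 shared 1 region between their starts in replicate 1, with a signal of 8.24 at rank 24380, which gives 40 gene-region pairs from 39 regions. At another divergent pair, rpl-39 and rps-30, replicate 1 listed a region in coding sequence of rps-30 with 10.3 at rank 12513 and none at rpl-39.

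At 16 genes the regions of both replicates overlapped. The closest summits were those of rpl-42, 2 bp apart in the 5′ UTR, and rps-7, 11 bp apart in the 3′ UTR. Those of rpl-30 lay 23 bp apart upstream of the start and those of rpl-20 lay 41 bp apart in coding sequence. At these 4 genes the signal in replicate 1 was 11.8 for rpl-42, 9.74 for rps-7, 11.3 for rpl-30 and 10.8 for rpl-20. In replicate 2 it was 6.64, 6.93, 6.83 and 10.5, so that 3 of the 4 well-aligned pairs ranked between 22923 and 25121 there. The others were rpl-21 (67 bp apart), rpl-35 (78 bp), rpl-14 (114 bp), rpl-11.2 (125 bp), rpl-3 (136 bp), rps-28 (215 bp), rpl-17 (255 bp), rps-27 (265 bp), rps-18 (289 bp), rpl-10 (309 bp), rps-5 (322 bp) and rpl-34 (330 bp), a distance close to the width of a region. The 16 make 61.5% of the 26 genes with a region in both replicates, against 56.8% of 1857 other genes within the same length range.

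The replicates did not rank these genes alike. Over the 26 genes with a region in both, Spearman's rho of the best percentiles was -0.127, with a Pearson's r of -0.0166 for log10 signal. Without rpl-3 they were -0.249 and -0.238. Over the 1857 other genes of the length range they were 0.0185 and 0.0281. These are given as descriptions, since genes share 2 libraries and 1 file taken to be the control. The percentile was higher in replicate 1 at 14 of the 26 genes and in replicate 2 at 12.

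**Figure D3:**
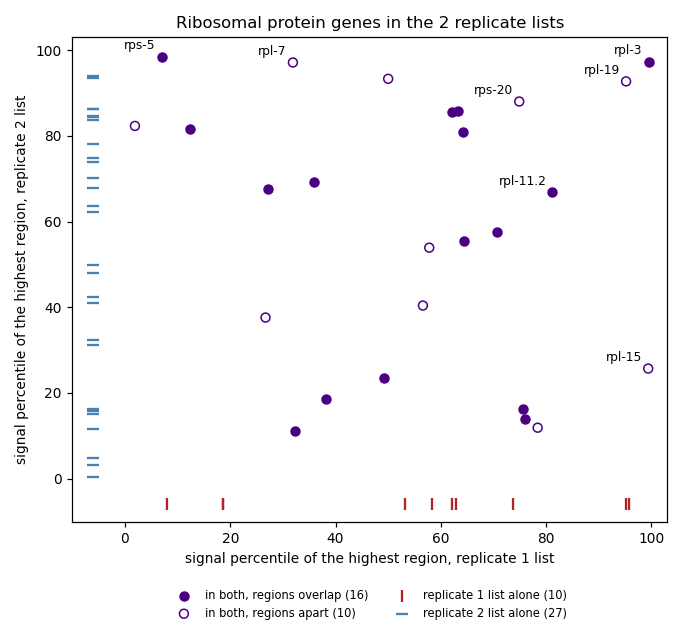
Signal percentile of the highest region in the replicate 1 list (x axis) and the replicate 2 list (y axis) for the 26 ribosomal protein genes with a region in both, filled where regions overlap (16) and open where they do not (10), with ticks below and left of the axes' zero for the 10 and 27 genes of 1 list alone. Only rpl-3 and rpl-19 lie in the upper right corner, and rps-5 and rpl-15 lie at opposite edges.

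Regions were not gathered at promoters. Of 40 gene-region pairs in replicate 1, the summit lay upstream of the start in 14, in the 5′ UTR in 1, in coding sequence in 14, in an intron in 4, in the 3′ UTR in 4 and beyond the 3′ end in 3. Of 68 in replicate 2, the numbers were 25, 2, 24, 7, 2 and 8 in the same order. Of summits inside the windows, 32.4% of 34 in replicate 1 lay in the upstream 500 bp and 41.2% in coding sequence, where these parts make up 38.6% and 37.6% of the window bases. In replicate 2 they were 30% and 48% of 50. At the other genes of the length range, 30.1% of summits lay upstream and 39.3% in coding sequence in replicate 1, and 29.3% and 43% in replicate 2, with 31.6% and 40.2% of the window bases. Per kb of gene body, ribosomal protein genes had 0.371 summits in replicate 1 (95% Poisson interval 0.235 to 0.557), against 0.296 at the other genes. In replicate 2 they had 0.565 (0.394 to 0.786), against 0.309. Per kb of the upstream 500 bp, ribosomal protein genes had 0.282 (0.141 to 0.505), against 0.277, in replicate 1 and 0.385 (0.215 to 0.634), against 0.277, in replicate 2. The excess over other genes was thus larger in gene bodies than upstream in both replicates, and outside the counting interval only for gene bodies in replicate 2.

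**Figure D4:**
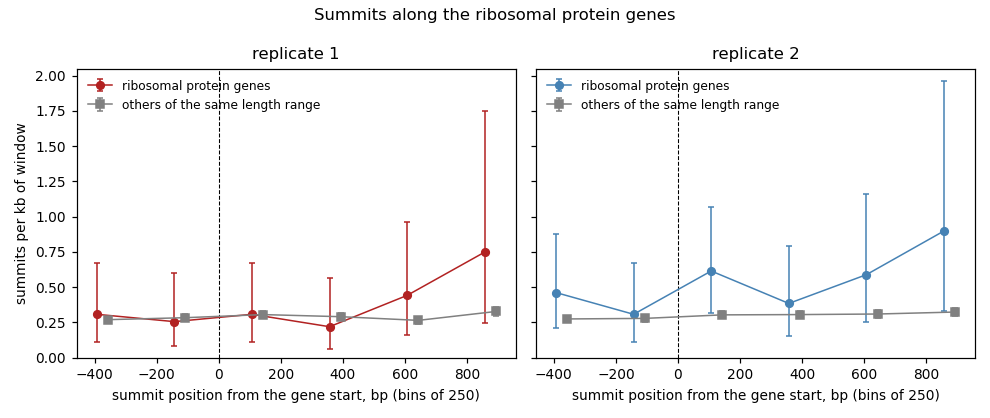
Summits per kb of window (y axis) in bins of 250 bp from the gene start (x axis, bp, dashed line at the start) for ribosomal protein genes in colour and the 7946 other protein-coding genes of the same length range in grey, with 95% Poisson intervals. In replicate 2 ribosomal protein genes have 0.615 summits per kb in the first 250 bp of the gene, against 0.304 at the others, and 0.308, against 0.279, in the 250 bp before it. In replicate 1 these are 0.308, against 0.306, and 0.256, against 0.284. Bins beyond 1000 bp are not drawn. Of the bins drawn, the highest in both replicates is 750 to 1000 bp, from 5 summits in replicate 1 (0.749, against 0.328) and 6 in replicate 2 (0.899, against 0.324). In replicate 1 the undrawn bin of 1250 to 1500 bp is higher, at 0.968 from 1 summit.

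The windows of ribosomal protein genes were richer in GC than those of other genes, with a median of 39.9% (34 to 46%), against 36% at other genes of the length range, of which 17.3% reached 39.9%. Their listed regions were richer in GC too, with a median of 39% in replicate 1, against 35.1% of all its regions, and 41.2% in replicate 2, against 36%. When the length bins were split further in 5 by GC content, a comparison added after seeing the data, the difference from other genes was 10.4 points in replicate 1 and 28.3 points in replicate 2, close to the values without the split.

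The GC box core GGGCGG was sought on both strands up to 50 bp from each summit. It was found at none of the 39 regions of replicate 1, which allows a share of up to 7.69%, where 1.48% of all regions of that list had it. In replicate 2 it was found at 3 of 68 regions, or 4.41% (95% exact interval 0.919 to 12.4%), where 1.68% of all regions had it. These were the regions at rpl-10, rps-28 and rps-16, the last named after its value was seen and with its summit in the neighbouring gene fib-1, which encodes fibrillarin. The related sequences GGGTGTG and GGGCGTG were found at none of the regions in either replicate, where 0.46% and 0.287% of all regions had them in replicate 1 and 0.437% and 0.27% in replicate 2. The windows at rpl-10, for a large-subunit protein that joins late in assembly, and rps-28, for a small-subunit protein, are shown with the match in capitals, which on the strand of the gene reads as the reverse complement CCGCCC. They are 101 bases from the RefSeq WBcel235 genome at chrII:8144051-8144151 for rpl-10 and chrIV:1659198-1659298 for rps-28, both on the plus strand.
rpl-10, replicate 2: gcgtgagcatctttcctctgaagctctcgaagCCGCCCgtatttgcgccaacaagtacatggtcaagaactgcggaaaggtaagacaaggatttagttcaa
rps-28, replicate 2: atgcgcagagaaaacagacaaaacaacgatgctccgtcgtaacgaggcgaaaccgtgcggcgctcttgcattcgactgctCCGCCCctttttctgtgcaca
At rpl-10 the match starts 18 bp before the summit and lies in coding sequence, in a region with a signal of 10.6 at rank 5496. At rps-28 it starts 30 bp after the summit, which lies 443 bp upstream of the gene in a region with 9.24 at rank 9736. The GC content of the windows was 48.5% at rpl-10 and 54.5% at rps-28. A match is a description of letters and not a bound site.

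The surroundings of these genes are crowded. At 37 of the 78 the window overlapped the body of another protein-coding gene. Summits lay in another protein-coding gene, inside the window or beyond it, in 3 pairs of replicate 1 and 13 of replicate 2. At rps-6, rps-29 and rpl-30 that gene (usp-3, snt-2 and madf-10) lay outside the window. Genes whose window overlapped another body were then left out, among both ribosomal protein genes and others. Of the 41 that remained, 22 had a region in replicate 1 and 28 in replicate 2. This is 16.9 points above the length-standardised others in replicate 1 and 29.6 points in replicate 2. The excess in replicate 1 was thus about 2 times that over all 78 genes. A snoRNA gene lay in the window of 13. Of these, 6 had a region in replicate 1 and 8 in replicate 2, against 30 and 45 of the 65 without one. By chromosome, genes with a region in replicate 2 numbered 16 of 23 on I, 5 of 10 on II, 13 of 18 on III, 12 of 17 on IV, 5 of 8 on V and 2 of 2 on X. In replicate 1 they were 11, 3, 10, 8, 3 and 1 in the same order. On chromosome II, where the share was lowest in both replicates, this is 30% in replicate 1 and 50% in replicate 2, against 44.1% and 46% of other genes of the length range on that chromosome. On the other chromosomes those genes had shares of 44.6 to 46.7% in replicate 1 and 40.9 to 49% in replicate 2, and the ribosomal protein genes lay above them in replicate 2 on all 6 chromosomes. In replicate 1 they lay above them on I, III, IV and X and below on II and V. These other genes were not weighted by length. Over all chromosomes their shares were 44.9% in replicate 1 and 45.9% in replicate 2, against 37.7% and 39.3% after standardisation. The directions by chromosome thus cannot be set beside the standardised excess. With 10 length bins within each chromosome, the excess of the 78 genes was 7.72 points in replicate 1 and 28.1 in replicate 2.

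Other genes of the ribosome and of translation were counted in the same way. Of 6 cytosolic ribosomal protein genes named otherwise, 4 had a region in replicate 1 (66.7%, against 40.7% of other genes after length standardisation) and 4 in replicate 2 (66.7%, against 42.3%), and all 6 had one in either (against 62.9%). They are the stalk protein genes rla-0, rla-1 and rla-2, the ubiquitin fusion genes ubl-1 and ubq-2, and rack-1, for a scaffold protein on the small subunit. Among them, rla-1 had a signal of 22.2 at rank 73 in replicate 1 and no region in replicate 2, and ubq-2 had 17.4 at rank 133 in replicate 2 and none in replicate 1. Both ranks are above those of any rpl- or rps- gene in the same replicate. Of 70 mitochondrial ribosomal protein genes, 37 had a region in replicate 1 (52.9%, against 51.7%) and 42 in replicate 2 (60%, against 53.6%). Of 38 translation factor genes, 24 had one in replicate 1 (63.2%, against 61.6%) and 28 in replicate 2 (73.7%, against 63.1%), and ife-1, for a cap-binding protein, had a pooled region with a signal of 32.6. Of 18 genes of ribosome assembly and RNA polymerase I, 12 had one in replicate 1 (66.7%, against 72%) and 13 in replicate 2 (72.2%, against 72.7%). The standardised share lay inside the list's counting interval in both replicates for each of these 4 lists, and for the rpl- and rps- genes it did so in replicate 1 alone. The lists differ in size, and intervals of short lists are wide. For the 6 genes named otherwise the interval was 22.3 to 95.7% in each replicate, with an excess of 25.9 points in replicate 1 and 24.4 in replicate 2.

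**Figure D5:**
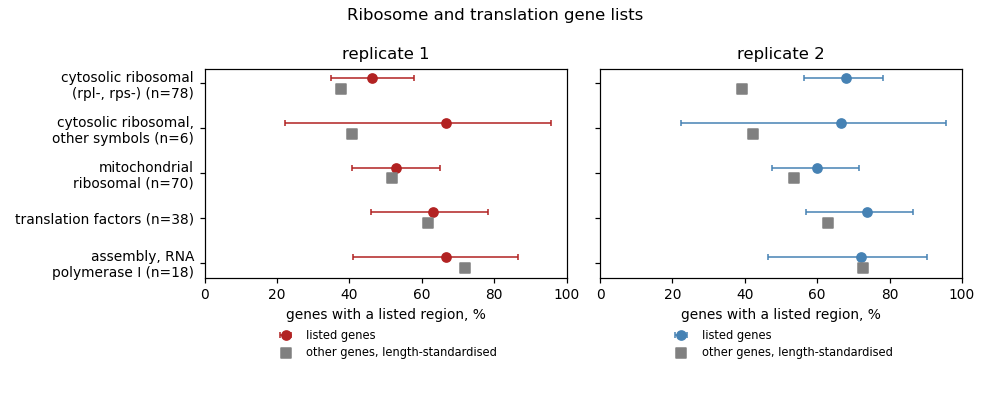
Percent of genes with a listed region (x axis) in 5 gene lists (y axis, number of genes in brackets), with circles and 95% exact intervals for the listed genes above squares for other protein-coding genes standardised to the list's window lengths. The gap is widest among lists of 18 genes or more for the 78 rpl- and rps- genes in replicate 2, at 67.9% against 39.3%.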

How the data were processed

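ChIP-seq region lists of 2 biological replicates of 1 group were used, as deposited on ce11. Per the file records, each replicate list came from that replicate's alignment and 1 further file, taken here to be the control, and the pooled and optimal IDR lists from both replicates. The aligner and the peak caller are not given in the sources used here. Both the deposited signal of each region and its −log10 q are the authors' own values, deposited in narrowPeak column order. In the pooled list the deposited −log10 q falls slightly below 0 for some regions and was read as a score. The ce10 lists were not used. Read depth is unknown, since the lists hold no counts, and so is the precision of a single signal value.

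Genes came from Ensembl release 115 on WBcel235, which is ce11, and sequences from RefSeq WBcel235. Windows were the gene body and 500 bp upstream, overlap was at least 1 bp, and other genes were weighted to the ribosomal protein genes' window lengths in 10 bins. Shares have exact Clopper-Pearson intervals at 95%, and a share of 0 has the limit of 3 counts. No test was made, since there is 1 group. Overlap counting was tested on simulated regions. Python 3.11.15, numpy 2.4.6, pandas 2.3.3, scipy 1.17.1 and blastn 2.17.0 were used.

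The gene set, the other lists and the alternatives were chosen with earlier results of these data known. Named were genes in the pooled list, the 10 best by mean percentile, the 5 highest per replicate, those with overlapping replicate regions, those with most regions and those with none. Alternatives varied the window, the overlap, the number of regions, the length bins, crowded genes and the replicates.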

Additional observations from a re-analysis of the deposited data

How the results depend on the processing

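Of 110 alternative values, 79 planned and 3 added ones stayed within set bounds. These were 1.5 times the main count or, for shares, medians and differences within a replicate, the main value's counting interval. For the mean of the replicates the bound was the range of the 2 replicate differences. Leaving out either replicate therefore kept that mean within its bound by construction. A further 25 moved beyond these bounds and 3 reversed. The excess over other genes reversed without length standardisation in replicate 1 (-16.3 points) and in the mean of the replicates (-5.87, against 18.5), and was 4.55 in replicate 2. This follows from comparing short windows with longer ones. With only the 5000 highest regions of each list the excess was -0.492 points in replicate 1, 11 in replicate 2 and 5.24 in the mean. The counts of genes were then 5 and 15 in replicates 1 and 2, 18 in either, 2 in both and 1 with overlapping regions, and with the 15000 highest 22, 31, 10 in both and 6 overlapping, by construction of shorter lists. Median percentiles became 95.8 and 87.4 with the 5000 highest, and 67.6 and 81.3 with the 15000 highest. Leaving out crowded genes gave counts of 22, 28, 34 in either, 16 in both and 10 overlapping, of 41 genes, and an excess of 16.9 points in replicate 1, 29.6 in replicate 2 and 23.2 in the mean. The share of summits upstream was 13.3% and 8.51% with no upstream bases, against 35% and 36.8%, and 49.4% in replicate 2 with 1000 bp. With either replicate left out, the count in either was 36 to 53 and the mean excess 8.46 to 28.6 points, lowest with replicate 1 alone and highest with replicate 2 alone.

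The main limits are 78 genes, 2 replicates that ranked them differently, no control library here, unknown depth and unknown scale of the signal. A region in these lists of peaks and background need not be a bound site. No paired analysis was possible because both samples belong to 1 group.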
